A study of Mus musculus with 15 samples.

Results

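This section describes how the liver's response to ethanol differed between mice given carbon tetrachloride (CCl4) and mice of the arm labelled OO. The quantity is an interaction, a difference of differences on the log2 scale. It is the change from CCl4 chow to CCl4 EtOH libraries minus the change from OO chow to OO EtOH libraries, with the substudy as a covariate. A positive interaction means a more positive ethanol change with CCl4 than in OO, and a negative one the opposite. Its 11 libraries, of 15 in the series, were chosen by the labels alone. All 24499 gene symbols of the deposited count tables entered, and 14222 passed a filter on low counts and were tested.

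Liver tissue was taken from adult C57BL/6 males, and libraries were made from its messenger RNA. The OO chow arm held library 5, taken at day 23 in substudy 2-3, and library 12, taken at day 20 in substudy 2-4. The OO EtOH arm held library 6 (day 23, substudy 2-3) and libraries 13, 14 and 15 (day 20, substudy 2-4). The CCl4 chow arm held libraries 16 and 17 and the CCl4 EtOH arm held libraries 18, 19 and 20, all at day 20 in substudy 2-4. CCl4 had been injected at 0.2 ml/kg, 2 times a week for 6 weeks. Both CCl4 arms are labelled as receiving CCl4 in the second phase too, at a lower dose per the protocol. Ethanol ran through a gastric tube at up to 25 g/kg per day for 3 weeks. Both EtOH arms are labelled HFD with ethanol and both chow arms are not, so ethanol and the HFD feed cannot be told apart and "ethanol" here covers both. The labels do not spell out OO or HFD. Libraries 12 to 15 are labelled OO in the second phase and libraries 5 and 6 are not. The labels do not state that the libraries of an arm came from separate animals. Their p-values therefore reflect library-to-library spread alone, which may be technical.

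The gene counts ran from 10973803 to 28843258 per library, with 16203 to 17530 genes detected. Pairs of libraries of an arm differed by far more than counting error, with a chi-square per degree of freedom of 19.4 to 78.4. Hepatocyte genes were high in all of the libraries, with albumin (Alb) between 32700 and 67800 CPM, counts scaled to a common library total. Exocrine pancreas transcripts were carried over in libraries 6 and 12. Over 41 of the 44 listed pancreas genes in the tables the summed level was 188 CPM in library 6 and 217 CPM in library 12, against 0.894 to 3.45 CPM in the other 9 libraries. Dmbt1, Cela1 and Bhlha15 were left out of that sum after their values were seen. With them it was 216 CPM in library 6, 248 CPM in library 12, 136 CPM in library 13, of which Dmbt1 gave 124, and 11.6 to 46.3 CPM in the other 8. Library 6 is 1 of 4 in its arm and library 12 is 1 of 2, and they lie on opposite sides of the OO ethanol comparison.

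Ethanol is oxidised in hepatocytes by alcohol and aldehyde dehydrogenases and by the cytochrome P450 CYP2E1, the enzyme that also turns CCl4 into a toxic radical. Electrophiles and oxidants free the transcription factor NRF2 from its repressor KEAP1, and NRF2 then raises genes for glutathione synthesis, glutathione S-transferases, reductases and export pumps by binding antioxidant response elements. A separate set of detoxifying genes, among them the CYP2B and CYP2C families, answers to the xenobiotic receptors CAR and PXR. Repeated CCl4 leads to scarring, in which macrophages, stellate cells and collagen accumulate.

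Genes are named as called when edgeR's quasi-likelihood test gave a Benjamini-Hochberg adjusted p under 0.05 over all 14222 tested genes. The interaction called 5 genes. Fabp5 had a positive interaction (0.00703% of tested genes), and Cbr3, Abcc4, Blvrb and Gsta1 had a negative one (0.0281%). At an unadjusted p under 0.05 the interaction held 627 genes with a positive value (4.41% of tested genes) and 585 with a negative value (4.11%). These are the shares to set beside the list counts at that threshold below. By comparison 930 genes were called for ethanol in OO, of which 485 rose (3.41%) and 445 fell (3.13%). In CCl4 animals 62 were called for ethanol, of which 24 rose (0.169%) and 38 fell (0.267%). The median standard error (SE) over genes was 0.33 for the interaction, 0.232 for ethanol in OO and 0.235 for ethanol in CCl4, on the log2 scale. The 5 interaction calls depended on which libraries were in the fit. With the substudy term kept, leaving out library 5 or 6 takes the other one out of the ethanol estimate too. That estimate then rests on OO libraries of day 20 only. Leaving out library 12 makes the OO ethanol estimate that of library 6 against 5, as with OO of day 23 only. The count was 0 without library 5, without library 6 or without library 12, 3 without library 14, 2 without library 16 and 9 without library 19, with 965, 959 and 879 genes at an unadjusted p under 0.05 in the 3 fits that called 0. Within day 20 alone, which leaves library 12 as the only OO chow library, it was 0, with 981 genes at an unadjusted p under 0.05, and DESeq2 on all 11 libraries called 154. The OO count also moved with single libraries, from 33 without library 12 to 1662 without library 13, and was 258, 208, 522, 453 and 608 without libraries 5, 6, 14, 15 and 18. The CCl4 count was 130, 21, 24 and 38 without libraries 13, 16, 17 and 20.

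Most genes that ethanol changed in OO had a smaller estimate of the same sign in CCl4 animals. The 485 genes that rose in OO had a median log2 change of 0.87 there and of 0.31 with CCl4, and 437 of them (90.1%) were positive with CCl4. The 445 that fell had medians of -1.18 in OO and -0.29 with CCl4, and 348 of them (78.2%) were negative with CCl4. The genes were selected on the OO change, which inflates that side. In the other direction, the 24 genes that rose with ethanol in CCl4 animals had medians of 2.35 with CCl4 and 2.23 in OO, and the 38 that fell had -1.80 and -1.14. In all, 44 genes were called in both, each in a single direction, which is 71% of the CCl4 calls and 4.73% of the OO calls. These 2 effects share no library. Over all tested genes the interaction had a median of -0.01, with 48.9% of genes above 0.

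**Figure D1:**
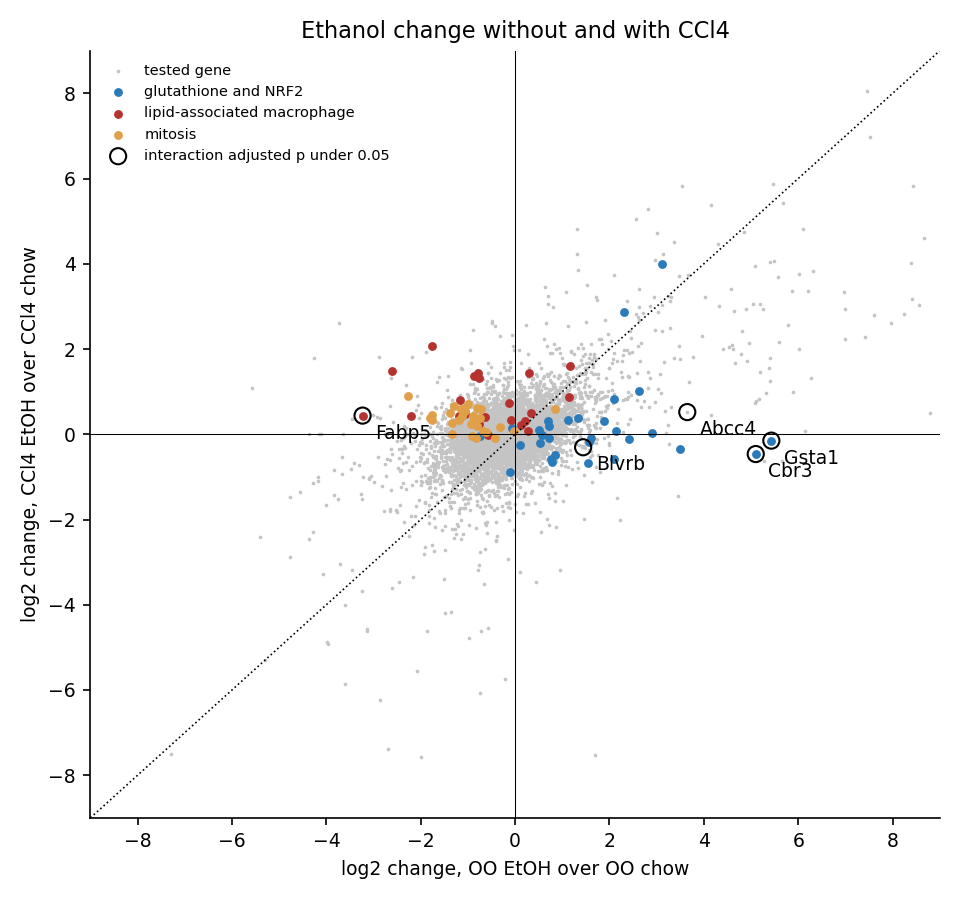
Log2 change with ethanol in OO animals (x axis) against the log2 change with ethanol in CCl4 animals (y axis) for the 14222 tested genes, with 7 genes outside the range of 9 on either axis. Points on the dotted line have an interaction of 0. The 5 circled genes lie near 0 on the y axis and far from 0 on the x axis, genes of the glutathione and NRF2 list (blue) lie mostly to the right of the line, and those of the lipid-associated macrophage (red) and mitosis (orange) lists mostly to its left.

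Each of the 5 called genes also changed with ethanol in OO livers, a change that is part of the interaction that selected them. None of the 5 was called for ethanol in CCl4 livers, where 0.169% of all tested genes were called higher and 0.267% lower. Cbr3, at chr16:93683215-93690990 on the plus strand of mm10, encodes carbonyl reductase 3, an enzyme that reduces ketones and quinones. Its level, in CPM scaled by TMM (a correction for the composition of each library), was 0.714 and 0.873 CPM in OO chow (libraries 5 and 12) and 28.5, 32.9, 31 and 16.4 CPM in OO EtOH (libraries 6, 13, 14 and 15). It was 3.18 and 5.28 CPM in CCl4 chow (libraries 16 and 17) and 3.06, 3.09 and 3.08 CPM in CCl4 EtOH (libraries 18, 19 and 20), the order of libraries used throughout. All OO EtOH libraries were above all others, and with CCl4 the ethanol libraries lay just below the chow libraries. The ethanol change was 5.10 ± 0.40 (SE, log2) in OO and -0.46 ± 0.32 with CCl4, and the interaction was -5.56 ± 0.50 with an adjusted p of 0.00398 by edgeR's quasi-likelihood test.

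Gsta1, at chr9:78230656-78242684 on the plus strand, encodes an alpha-class glutathione S-transferase, which joins glutathione to electrophiles. Its level was 0.909 and 1.83 CPM in OO chow and 49.4, 54.6, 65.2 and 84.9 CPM in OO EtOH. With CCl4 it was 11.2 and 19.9 CPM under chow and 22.8, 11.4 and 7.43 CPM under ethanol. The CCl4 chow libraries were already above both OO chow libraries, and the CCl4 EtOH libraries overlapped them. The interaction was -5.58 ± 0.70 (edgeR adjusted p = 0.0489), from 5.43 ± 0.58 in OO and -0.15 ± 0.43 with CCl4. Gsta1 has close copies in the genome, and reads that fit several places were not counted to genes, so its counts are uncertain.

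Abcc4, at chr14:118482692-118706219 on the minus strand, encodes MRP4, a pump that exports bile acids and conjugates into the blood. Its level was 8.18 and 9.53 CPM in OO chow and 119, 124, 116 and 83.9 CPM in OO EtOH, without overlap. In CCl4 livers it was 14.5 and 11 CPM under chow and 15.5, 17.5 and 22 CPM under ethanol. These ranges did not overlap either. The ethanol change was 3.65 ± 0.25 in OO and 0.52 ± 0.22 with CCl4, and the interaction was -3.13 ± 0.32 (edgeR adjusted p = 0.00627).

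Blvrb, at chr7:27447978-27466144 on the plus strand, encodes biliverdin reductase B, an NADPH-dependent flavin and biliverdin reductase. Its level was 58.8 and 65.7 CPM in OO chow and 162, 187, 176 and 168 CPM in OO EtOH. The CCl4 arms had 60.2 and 66.9 CPM under chow and 56.6, 58.2 and 39.4 CPM under ethanol, all within or below the OO chow range but for library 17. The interaction was -1.75 ± 0.24 (edgeR adjusted p = 0.0489), from 1.44 ± 0.18 in OO and -0.30 ± 0.17 with CCl4.

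Fabp5, at chr3:10012548-10016607 on the plus strand, encodes a fatty acid-binding protein found in macrophages among other cells. It went the other way, with 134 and 76 CPM in OO chow and 11.5, 7.88, 10.8 and 9.32 CPM in OO EtOH. Under CCl4 it stood at 34.5 and 45.4 CPM under chow and 51, 74.1 and 37.3 CPM under ethanol. Every OO EtOH library was below every other library, and the CCl4 chow and CCl4 EtOH libraries overlapped. The ethanol change of Fabp5 was -3.23 ± 0.26 in OO and 0.44 ± 0.27 with CCl4, and its interaction was 3.67 ± 0.39 (edgeR adjusted p = 0.00761). The summed lipid-associated macrophage markers, a list that holds Fabp5, were at 1720 and 2350 CPM in OO chow, 2030, 2170, 2030 and 1830 in OO EtOH, 2450 and 3420 in CCl4 chow and 4330, 4670 and 4270 in CCl4 EtOH. In OO this sum overlapped between chow and EtOH. The median log2 change with ethanol over the list's 22 tested genes was -0.70 in OO. There 5 of them were called lower, Fabp5 among them, and 1 higher, beside 3.13% and 3.41% of all tested genes. The Kupffer cell markers summed to 1800 and 2450 CPM in OO chow and 1510, 1320, 1630 and 1300 CPM in OO EtOH, and the monocyte markers to 308 and 681 CPM and 133, 177, 240 and 175 CPM, so both were lower in OO EtOH without overlap, as Fabp5 was. Fabp5 was higher in both OO chow libraries than in every CCl4 library. The part of these markers in the Fabp5 result was not tested.

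**Figure D2:**
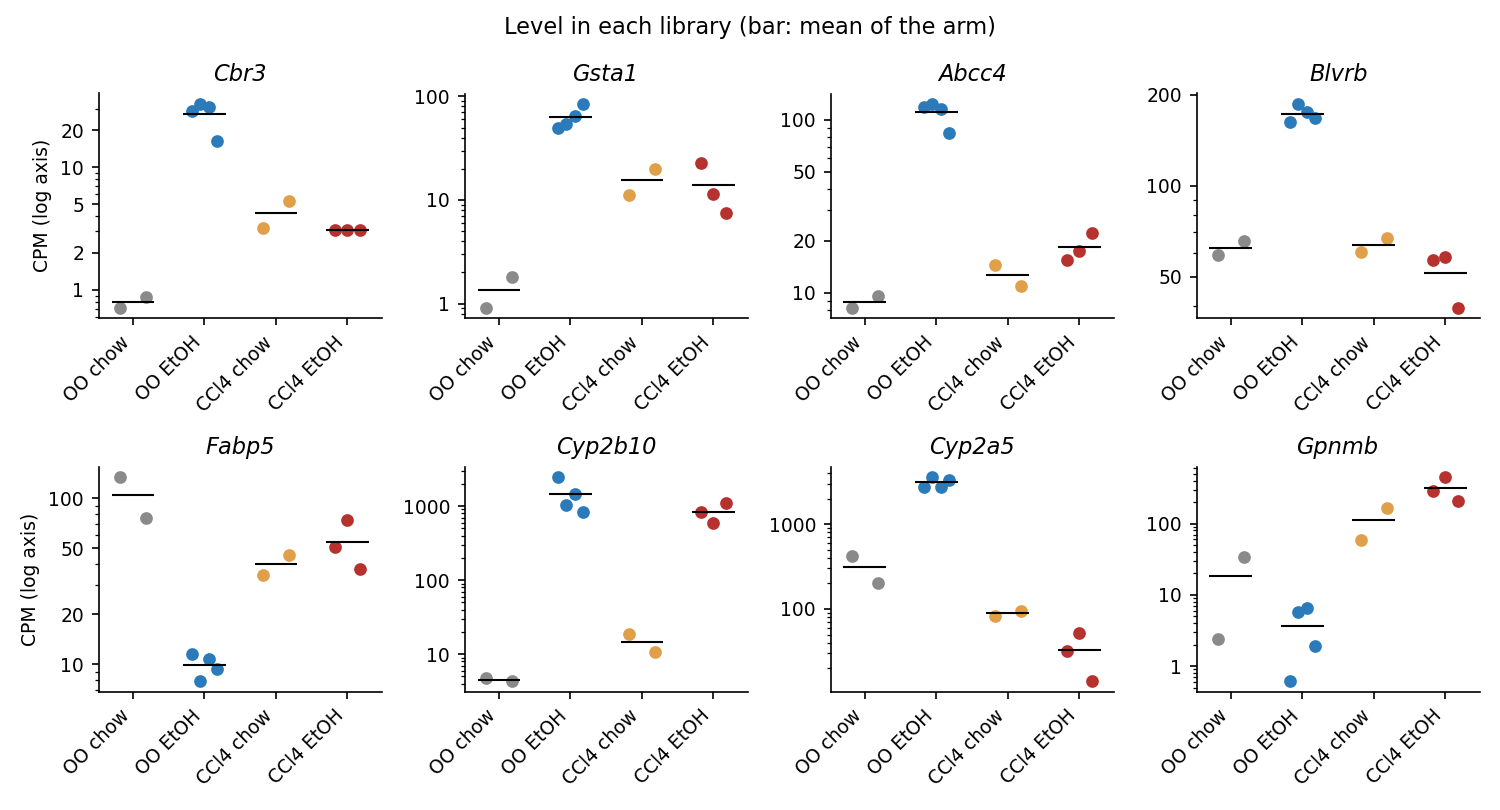
Level in CPM (log axis, TMM-normalised) of 8 genes in each of the 11 libraries by arm, with the mean of each arm as a bar. Cbr3, Gsta1, Abcc4 and Blvrb are high in the 4 OO EtOH libraries only, Fabp5 is low in those 4 libraries only, and Cyp2b10 is high in both EtOH arms.

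The 5 called genes kept their direction in all 23 alternative fits, but no gene kept its call in all of them. Abcc4 was called in 18 of the 23, Cbr3 and Fabp5 in 17, Blvrb in 10 and Gsta1 in 8. With OO libraries of day 20 only, the interaction was -5.39 for Cbr3, -2.98 for Abcc4, 3.45 for Fabp5, -1.73 for Blvrb and -5.37 for Gsta1, with edgeR adjusted p of 0.103, 0.105, 0.103, 0.215 and 0.215. With OO libraries of day 23 only, the values were -5.78, -3.35, 3.97, -1.78 and -5.92, with adjusted p of 0.0301, 0.0469, 0.126, 0.257 and 0.401. That second fit sets day 23 OO libraries beside day 20 CCl4 libraries, so day and arm cannot be told apart in it. The fits without library 5 or without library 6 nearly repeat the day 20 fit, with -5.38 and -5.39 for Cbr3. The fit without library 12 nearly repeats the day 23 fit, with -5.77 for Cbr3. The 23 fits are therefore not separate checks. Leaving out libraries 6 and 12, which hold the pancreas transcripts, also meant leaving out the substudy covariate, which could then not be estimated. OO chow is then library 5 alone (day 23, substudy 2-3) against OO EtOH libraries 13 to 15 (day 20, substudy 2-4), so ethanol, day and substudy cannot be told apart in OO in that fit. It gave an interaction of -5.68 for Cbr3, -3.20 for Abcc4, 4.26 for Fabp5, -1.89 for Blvrb and -6.37 for Gsta1 (edgeR adjusted p of 0.0481, 0.06, 0.0331, 0.123 and 0.142). The calls of Cbr3 and Abcc4 were each lost without library 5, 6 or 12. That of Fabp5 was lost without 5, 6, 12 or 16. Among the fits that left out 1 library, Blvrb kept its call only without 13, 19 or 20, and Gsta1 only without 18 or 20.

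**Figure D3:**
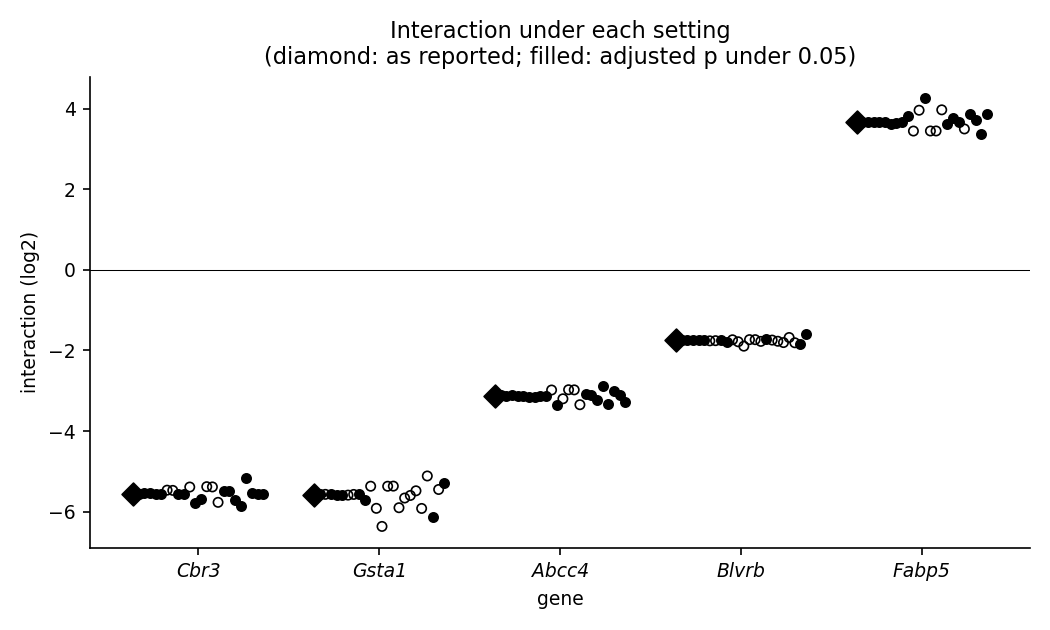
Interaction on the log2 scale (y axis) of the 5 called genes under the reported fit (diamond) and 23 alternative fits (circles, in a fixed order from left to right), filled where the adjusted p is under 0.05. Each gene stays on its side of 0, while the filled circles differ between fits.

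The start regions of the 4 genes with a negative interaction are shown to let the reader look for the antioxidant response element, the site of NRF2. Each window runs from 250 bases before to 50 bases after a RefSeq start on GRCm38.p6, the assembly of mm10, on the gene's strand. Capitals mark matches to its core, TGACNNNGC, on either strand.
Cbr3, chr16:93682969-93683268, plus strand: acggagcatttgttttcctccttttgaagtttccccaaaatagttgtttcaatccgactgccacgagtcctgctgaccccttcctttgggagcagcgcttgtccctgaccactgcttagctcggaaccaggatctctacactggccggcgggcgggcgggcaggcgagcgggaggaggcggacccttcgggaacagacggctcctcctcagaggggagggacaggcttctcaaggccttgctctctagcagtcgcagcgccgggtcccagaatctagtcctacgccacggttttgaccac
Gsta1, chr9:78230419-78230718, plus strand: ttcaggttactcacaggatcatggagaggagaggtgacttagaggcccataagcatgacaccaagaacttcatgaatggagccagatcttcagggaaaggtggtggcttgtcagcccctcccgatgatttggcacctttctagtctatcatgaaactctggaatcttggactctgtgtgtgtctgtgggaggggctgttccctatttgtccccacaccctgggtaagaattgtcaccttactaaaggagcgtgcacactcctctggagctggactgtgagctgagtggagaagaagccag
Abcc4, chr14:118706170-118706469, minus strand: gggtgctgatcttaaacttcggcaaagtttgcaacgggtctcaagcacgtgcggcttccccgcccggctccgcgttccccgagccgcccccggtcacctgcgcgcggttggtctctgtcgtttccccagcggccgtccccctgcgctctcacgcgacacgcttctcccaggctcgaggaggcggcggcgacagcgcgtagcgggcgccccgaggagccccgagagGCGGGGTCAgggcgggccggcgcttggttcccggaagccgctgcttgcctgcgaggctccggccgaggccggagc
Blvrb, chr7:27447728-27448027, plus strand: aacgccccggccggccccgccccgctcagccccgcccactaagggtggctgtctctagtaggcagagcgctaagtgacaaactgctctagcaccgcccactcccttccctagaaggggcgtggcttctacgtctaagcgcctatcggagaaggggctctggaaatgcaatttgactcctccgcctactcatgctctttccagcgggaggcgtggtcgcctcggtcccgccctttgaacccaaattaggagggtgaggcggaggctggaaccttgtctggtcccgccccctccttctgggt
Only the Abcc4 window held a match, 1, which lies on the reverse strand and starts 25 bases before the start site. Of all 32851 RefSeq windows of this length, 4071 (12.4%) held a match. Of the 30 tested genes of the glutathione and NRF2 list described next, 26 had a window and 8 of these (30.8%) held a match (Gclm, Gsta3, Txnrd1, Srxn1, Ugdh, G6pdx, Akr1c19 and Prdx1), against 14% of all genes with a window. A match here is a run of letters, not evidence of binding, and sites outside these windows were not searched.

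Genes of glutathione metabolism and NRF2 targets had the most negative median interaction of the lists with at least 10 tested genes. Of 30 tested, 18 rose and 1 fell with ethanol in OO, beside 3.41% and 3.13% of all tested genes. With ethanol in CCl4 livers 2 rose (Gstt3 and Akr1b7) and 0 fell, beside 0.169% and 0.267%. In the interaction 2 were called, and 21 were negative and 1 positive at an unadjusted p under 0.05. The median log2 change was 1.44 in OO and -0.06 with CCl4, and the median interaction was -1.30 (-1.41 to -1.15 over the 23 alternatives). The OO EtOH arm had the highest mean of the 4 arms for 23 of the 30, against 34.1% of all tested genes. Under chow the list's median was 0.30 higher in CCl4 than in OO libraries.

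Among the glutathione S-transferases, Gstm4 stood next to the threshold. Its level was 21.9 and 45.3 CPM in OO chow and 76.9, 132, 110.2 and 114 CPM in OO EtOH. In the CCl4 arms it was 47.1 and 29.7 CPM under chow and 25.3, 28.4 and 18.7 CPM under ethanol, so the ethanol libraries were above chow in OO and below chow with CCl4. Its interaction was -2.22 ± 0.32 (edgeR adjusted p = 0.0571). Gstm1, Gstm2, Gstm3 and Gsta2 rose in OO by 2.10, 1.57, 3.50 and 2.90 on the log2 scale, and their changes with CCl4 were -0.58, -0.19, -0.34 and 0.03. Gstm3 was at a mean of 41.5 CPM in OO chow, 489 in OO EtOH, 408 in CCl4 chow and 321 in CCl4 EtOH. The mean was thus low in OO chow alone. Gstt3, a theta-class enzyme, did not share the pattern and rose in both, by 2.30 in OO and 2.87 with CCl4.

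Other enzymes of the list rose in OO as well. Nqo1, the quinone reductase often used as a readout of NRF2, was at 6.95 and 7.54 CPM in OO chow and 37.4, 35.8, 46.4 and 36.9 CPM in OO EtOH. With CCl4 it was 10.9 and 22.9 CPM under chow and 13.8, 23.2 and 9.65 CPM under ethanol, with overlap. It rose in OO by 2.41 and its interaction was -2.53 ± 0.53 (edgeR adjusted p = 0.172). Ephx1, the microsomal epoxide hydrolase, was at 182 and 282 CPM in OO chow, 833, 902, 899.7 and 911 in OO EtOH, 398 and 335 in CCl4 chow and 462, 527 and 384 in CCl4 EtOH. It rose in OO by 1.88, and its interaction of -1.56 ± 0.26 did not pass (adjusted p = 0.107). Gclc, the catalytic subunit of the enzyme that starts glutathione synthesis, rose in OO by 0.85 and had -0.48 with CCl4, where it did not pass. Srxn1, which repairs oxidised peroxiredoxins, rose in OO by 1.61 and had -0.09 with CCl4. G6pdx, which makes NADPH, was the 1 member that fell in OO, by 0.75.

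Conjugating enzymes followed the same direction with fewer calls. Of 19 tested UDP-glucuronosyltransferases and sulfotransferases, 5 rose in OO and none fell, beside 3.41% and 3.13% of all tested genes. With CCl4 1 rose and 1 fell, beside 0.169% and 0.267%. The interaction called none, with 10 negative and 0 positive at an unadjusted p under 0.05, and its median was -0.98. Ugt2b5 was at 656 and 513 CPM in OO chow, 1025, 930.0, 1225 and 1398 in OO EtOH, 509 and 746 in CCl4 chow and 432, 412 and 289.9 in CCl4 EtOH. Its ethanol libraries were above chow in OO and below chow with CCl4, with an interaction of -1.71 ± 0.37 (edgeR adjusted p = 0.167). Ugt1a6a had -0.98 ± 0.21 (adjusted p = 0.164). Ugt1a9 rose in OO by 3.37 and was at 1.79 with CCl4 (adjusted p = 0.0554).

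Bile acid and sterol transport genes had 29 tested members, of which 6 rose and 1 fell in OO, beside 3.41% and 3.13% of all tested genes. With CCl4 1 rose and 2 fell, beside 0.169% and 0.267%. The interaction called Abcc4 alone, with 10 negative and 0 positive at an unadjusted p under 0.05, and its median was -0.43. Abcg8, a subunit of the canalicular sterol pump, was at 79.6 and 101 CPM in OO chow and 181, 142, 129 and 125 CPM in OO EtOH. In CCl4 livers it was 46.6 and 50.6 CPM under chow and 11.7, 22.8 and 21.3 CPM under ethanol. The EtOH libraries lay above chow in OO and below it with CCl4, and the interaction was -2.09 ± 0.37 (edgeR adjusted p = 0.107). Its partner Abcg5 had -1.50 ± 0.28 (adjusted p = 0.129). Cyp7b1, the oxysterol 7-alpha-hydroxylase, fell by 3.20 with CCl4 and had -0.79 ± 0.33 in OO, where it did not pass. Cyp7a1, the rate-limiting enzyme of bile acid synthesis, was at 44.3, 12.3, 153 and 65.8 CPM in the OO EtOH libraries, which spread widely, and its interaction of 0.77 ± 1.55 was within its error.

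Several drug-metabolising P450 genes rose with ethanol in each setting. Of 30 tested, 16 rose and 0 fell in OO, beside 3.41% and 3.13% of all tested genes. With CCl4 7 rose and 0 fell, beside 0.169% and 0.267%. In the interaction none was called, and 9 were negative and 1 positive at an unadjusted p under 0.05. Cyp2b10, the classic target of CAR, was at 4.8 and 4.29 CPM in OO chow and 2456, 1024, 1451 and 833 CPM in OO EtOH. The CCl4 arms had 18.9 and 10.6 CPM under chow and 826, 585 and 1118 CPM under ethanol. It rose in OO by 8.43 and with CCl4 by 5.84, and the interaction of -2.59 ± 0.53 did not pass (edgeR adjusted p = 0.162). Cyp2c29 rose by 3.14 in OO and by 4.22 with CCl4, and was the 1 member with a positive interaction at an unadjusted p under 0.05 (1.08 ± 0.27, edgeR adjusted p = 0.24). Cyp2b, Cyp2c and Cyp2a genes have close copies, so their counts are uncertain.

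Cyp2a5, a coumarin hydroxylase, had estimates of opposite sign in the 2 settings. Its level was 425 and 201 CPM in OO chow and 2753, 3564, 2765 and 3281 CPM in OO EtOH. Under CCl4 it stood at 83.5 and 95.2 CPM under chow and 31.7, 52.4 and 14 CPM under ethanol, all below the lowest OO library. It rose in OO by 3.45, had -1.45 ± 0.45 with CCl4 (adjusted p = 0.29), and an interaction of -4.89 ± 0.70 (edgeR adjusted p = 0.0794). Cyp1a2 and Cyp2e1, both of the pericentral zone, had estimates of the same signs, none of which passed. Cyp2e1 was at 4232 and 3891 CPM in OO chow, 5364, 6052, 2914 and 3503 in OO EtOH, 1250 and 1274 in CCl4 chow and 439.6, 752 and 197 in CCl4 EtOH. Its interaction was -1.64 ± 0.67 (adjusted p = 0.552), and that of Cyp1a2 was -2.43 ± 0.49 (adjusted p = 0.162). Rhbg, a pericentral ammonia transporter, was at 14.1 and 14.1 CPM in OO chow, 30.9, 38, 26.8 and 22.9 in OO EtOH, 11 and 11 in CCl4 chow and 5.89, 4.98 and 3.5 in CCl4 EtOH. It rose in OO by 1.08, with -1.18 ± 0.25 with CCl4 and an interaction of -2.26 ± 0.35 (adjusted p = 0.0794). The 22 tested pericentral genes had a median interaction of 0.04, with 2 positive and 4 negative at an unadjusted p under 0.05.

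The enzymes of ethanol breakdown held few calls. Of 17 tested alcohol and aldehyde dehydrogenases and related genes, 3 rose and 1 fell in OO, beside 3.41% and 3.13% of all tested genes. With CCl4 1 rose and 2 fell, beside 0.169% and 0.267%. The interaction had 0 positive and 5 negative members at an unadjusted p under 0.05. Aldh1a1, retinal dehydrogenase 1, was at 1026 and 1122 CPM in OO chow and 2795, 3350, 2859 and 4226 CPM in OO EtOH. In the CCl4 arms it was 1106 and 1258 CPM under chow and 1555, 1131 and 991 CPM under ethanol. The OO ranges were apart and the CCl4 ranges overlapped, with an interaction of -1.50 ± 0.33 (edgeR adjusted p = 0.172). Adh4 fell by 1.38 with CCl4 and had -0.17 ± 0.22 in OO. Aldh3a2, which oxidises fatty aldehydes, rose in both, by 1.13 and 0.89.

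Part of the genes of mitochondrial and peroxisomal fat oxidation rose in OO. Of 35 tested targets of PPARA and enzymes of beta-oxidation, 17 were called higher in OO, beside 3.41% of all tested genes. With CCl4 0 were called higher, beside 0.169% of all tested genes, so that count is near the overall share. The medians were 0.73 in OO, 0.38 with CCl4 and -0.35 for the interaction, which held 0 positive and 7 negative members at an unadjusted p under 0.05 and no call. Crat, carnitine acetyltransferase, was at 21.4 and 28.3 CPM in OO chow, 51, 61.5, 67.1 and 64.2 in OO EtOH, 43.2 and 31.2 in CCl4 chow and 45.8, 44.1 and 60.9 in CCl4 EtOH. It rose in OO by 1.21 and had 0.43 ± 0.18 with CCl4. Cyp4a14, a strong target of PPARA, was at 10.6 and 6.03 CPM in OO chow, 656, 198, 284 and 98.4 in OO EtOH, 3.63 and 1.99 in CCl4 chow and 17.2, 86 and 36.5 in CCl4 EtOH. The EtOH libraries were above chow in both settings, and its interaction of -1.36 ± 1.09 was near its error and was -0.13 without libraries 6 and 12 and the covariate. Of 36 respiratory chain subunits all had a negative interaction estimate, with a median of -0.32 and 9 at an unadjusted p under 0.05. In the fit without libraries 6 and 12 and the covariate the median was -0.09 for respiratory chain, -0.18 for fatty acid oxidation and PPARA, -0.19 for bile acid and transport and -0.33 for xenobiotic P450 genes. The OO EtOH arm had the highest mean for 35 of the 36 respiratory chain genes, against 34.1% of all tested genes.

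Single genes of fat synthesis and transport had positive interaction estimates. Elovl5, which lengthens polyunsaturated fatty acids, was at 844 and 619 CPM in OO chow, 249, 218, 222 and 241 in OO EtOH, 456 and 406 in CCl4 chow and 324, 319 and 313 in CCl4 EtOH. It fell by 1.57 in OO and had -0.44 ± 0.14 with CCl4, and its interaction was 1.14 ± 0.20 (edgeR adjusted p = 0.107). Scd1, stearoyl-CoA desaturase 1, was at 16850 and 14800 CPM in OO chow and 861, 1381, 2417 and 979 CPM in OO EtOH. With CCl4 it was 12650 and 6828 CPM under chow and 4366, 8839 and 2104 CPM under ethanol. The OO ranges were apart, the CCl4 ranges overlapped, and the interaction was 2.73 ± 0.87 (adjusted p = 0.413). Pltp, the phospholipid transfer protein, was at 54.8 and 62 CPM in OO chow, 20.1, 23.2, 23.1 and 18.3 in OO EtOH, 37.7 and 32.8 in CCl4 chow and 47, 31.3 and 37.9 in CCl4 EtOH, with an interaction of 1.63 ± 0.26 (adjusted p = 0.0826). The 35 tested genes of lipogenesis and the lipid droplet had a median interaction of 0.08, with 4 positive and 1 negative at an unadjusted p under 0.05.

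**Figure D4:**
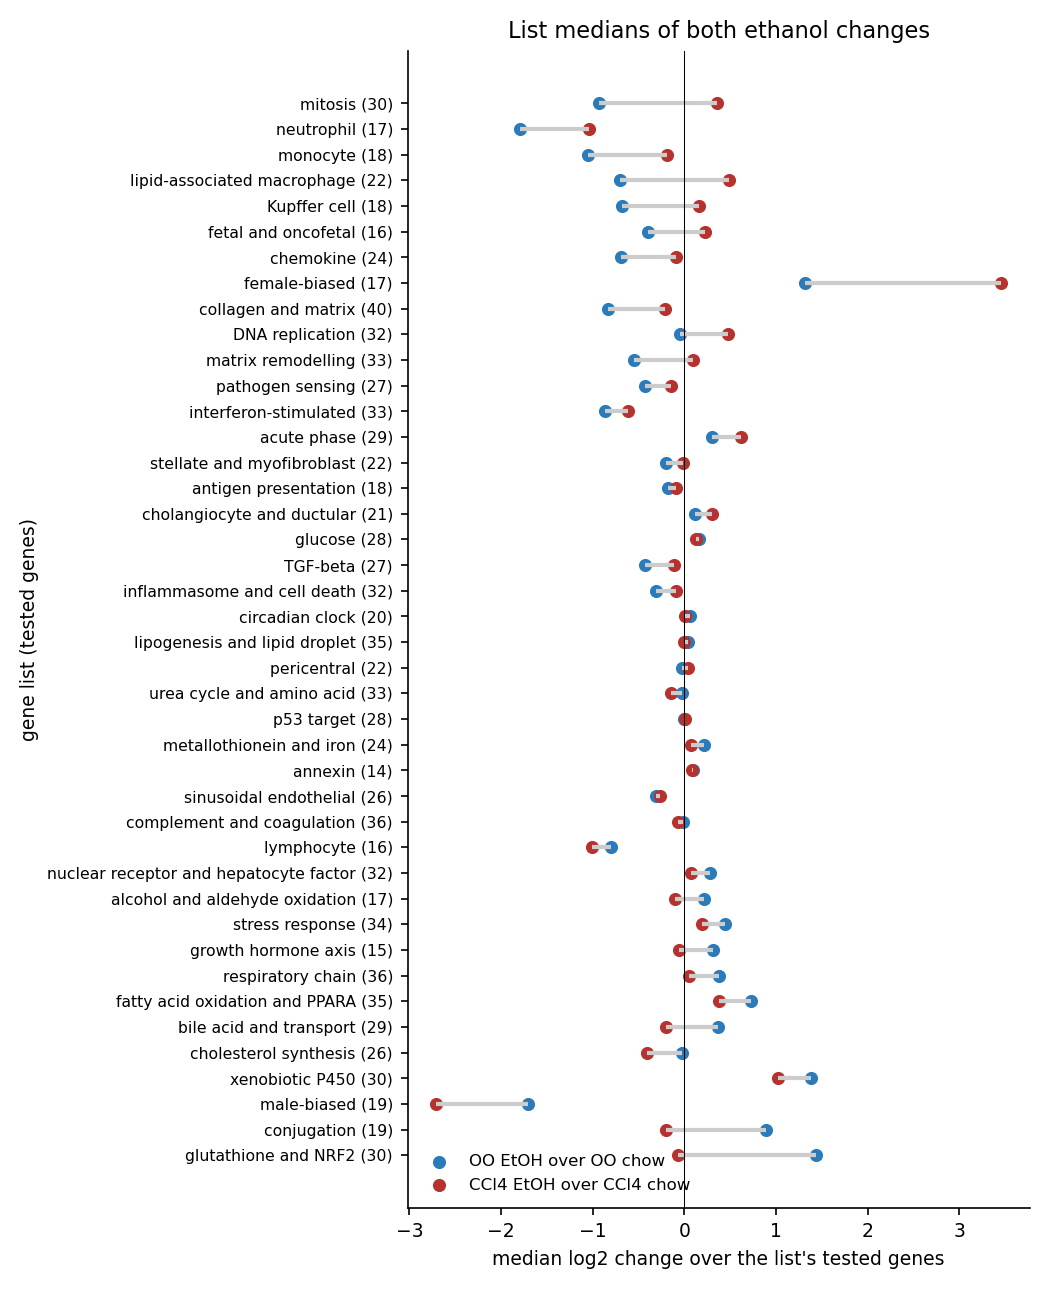
Median log2 change over the tested genes of each list of at least 10 tested genes other than exocrine pancreas, for ethanol in OO (blue) and ethanol in CCl4 (red), ordered by the list's median interaction, with the number of tested genes in parentheses. The glutathione and NRF2 list is at the bottom, with medians of 1.44 and -0.06, and the mitosis list at the top, with -0.93 and 0.36.

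Macrophage marker lists held more positive than negative interaction values. In bulk libraries fewer cells of a type and less RNA per cell cannot be told apart. Of 18 tested Kupffer cell markers 10 were positive and 0 negative at an unadjusted p under 0.05, of 22 lipid-associated macrophage markers 13 and 0, and of 18 monocyte markers 11 and 0, beside 4.41% and 4.11% of all tested genes. Only Fabp5 was called. In OO 7 of the Kupffer cell, 5 of the lipid-associated macrophage and 9 of the monocyte markers fell with ethanol. In the same order 0, 1 (Lgals1, a galectin) and 0 rose, where 3.13% of all tested genes fell and 3.41% rose. With CCl4 none was called in any of the 3 lists, where 0.169% of all tested genes rose and 0.267% fell. Those counts are thus near the overall share. The monocyte markers summed to 308 and 681 CPM in OO chow, 133, 177, 240 and 175 in OO EtOH, 665 and 1240 in CCl4 chow and 944, 992 and 877 in CCl4 EtOH. Library 12 was the higher of the OO chow arm, above the CCl4 chow library 16.

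C1qa, a complement subunit made by resident macrophages, was at 89 and 114 CPM in OO chow, 62, 69.7, 74.8 and 62.3 in OO EtOH, 93.7 and 128 in CCl4 chow and 161, 150.5 and 139 in CCl4 EtOH. It fell by 0.64 in OO, had 0.44 ± 0.16 with CCl4, and its interaction was 1.08 ± 0.22 (edgeR adjusted p = 0.162). Csf1r, the receptor of macrophage colony-stimulating factor, was at 182 and 319 CPM, 118, 129.8, 147 and 116 CPM, 249 and 243 CPM and 255, 220.2 and 231 CPM in the same order of arms. It fell by 1.03 in OO, and the CCl4 ranges overlapped. Clec4f, a marker of resident Kupffer cells, had -0.48 ± 0.18 in OO and -0.18 ± 0.19 with CCl4, neither of which passed. Cx3cr1, a receptor of monocyte-derived cells, was at 2.27 and 7.54 CPM, 0.533, 1.02, 2.09 and 0.704 CPM, 16.8 and 17.5 CPM and 20.9, 14.9 and 13.2 CPM, and its interaction was 2.28 ± 0.47 (adjusted p = 0.162). It was 0.68 for Cx3cr1 and 0.41 for Csf1r without libraries 6 and 12 and the covariate.

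Gpnmb and Spp1 mark lipid-associated macrophages, and Spp1 (osteopontin) is also made by bile duct cells. Gpnmb was at 2.4 and 33.8 CPM in OO chow and 0.61, 5.73, 6.54 and 1.94 CPM in OO EtOH. In CCl4 livers it was 59.1 and 163 CPM under chow and 282, 447 and 209 CPM under ethanol, so the EtOH libraries were above chow with CCl4 only. Its interaction was 4.11 ± 0.82 (edgeR adjusted p = 0.183), and it was 0.50 without libraries 6 and 12 and the substudy covariate (adjusted p = 0.999). Spp1 was at 63.1 and 97 CPM, 36.4, 66.3, 64.5 and 37.4 CPM, 78.8 and 301 CPM and 385, 568 and 592 CPM in the order of arms used above, with an interaction of 2.23 ± 0.68 (adjusted p = 0.401). In the fit without libraries 6 and 12 and without the covariate, where ethanol, day and substudy cannot be told apart in OO, the list medians were 0.48 for Kupffer cell markers, 0.45 for lipid-associated macrophage markers and 0.21 for monocyte markers, against 0.99, 1.10 and 1.13 as reported and 0.94, 1.05 and 1.03 without the covariate alone. With OO of day 23 only they were 0.60, 0.70 and 0.87, and with OO of day 20 only 1.16, 1.51 and 1.35.

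**Figure D5:**
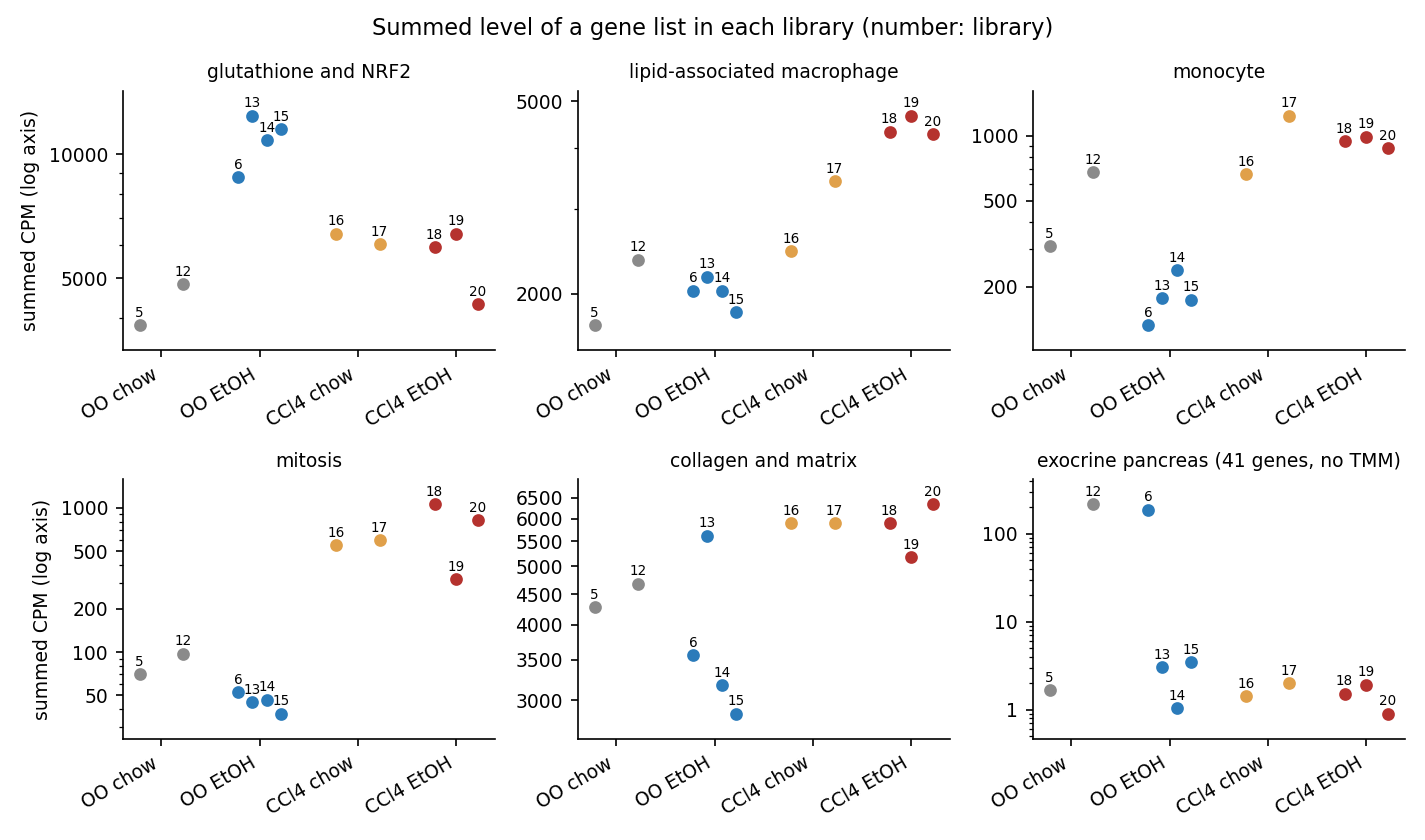
Summed CPM (log axis) of the tested genes of 5 lists and, without TMM scaling, of 41 exocrine pancreas genes in each library, with the library number above each point. Libraries 6 and 12 stand apart for pancreas genes, and library 12 is above library 5 for the monocyte and lipid-associated macrophage lists.

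Several chemokine and leukocyte genes also had positive estimates. Cxcl13, a B cell attractant, was at 9.09 and 63 CPM in OO chow, 1.22, 2.15, 5.59 and 6.16 in OO EtOH, 2.52 and 1.23 in CCl4 chow and 2.75, 2.9 and 1.37 in CCl4 EtOH. Library 12 was the highest of all at this gene, and the interaction was 3.81 ± 0.66 (edgeR adjusted p = 0.107). Aoah, which inactivates bacterial lipopolysaccharide, was at 7.33 and 13.4 CPM, 2.78, 3.07, 4.97 and 3.52 CPM, 9.03 and 7.67 CPM and 11.4, 9.08 and 9.31 CPM in the order of arms. It fell by 1.63 in OO and its interaction was 1.88 ± 0.33 (adjusted p = 0.107). Without libraries 6 and 12 and the covariate the interaction was 1.30 for Cxcl13 and 1.16 for Aoah. Of 24 tested chemokines and their receptors 9 were positive and 1 negative at an unadjusted p under 0.05, and of 27 pathogen sensing genes 7 and 0. Over all tested genes the shares were 4.41% and 4.11%. The list medians were 0.71 for chemokine genes and 0.35 for pathogen sensing genes, and -0.07 and -0.09 without libraries 6 and 12 and the covariate. That of the 17 tested neutrophil markers was 1.18 as reported, 0.85 without the covariate alone and -0.87 without libraries 6 and 12 and the covariate. Lymphocyte markers (16 tested) had 0 positive and 0 negative members at an unadjusted p under 0.05.

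Matrix genes showed few single results. Of 40 tested collagens and matrix proteins, 9 fell in OO and 1 fell with CCl4, beside 3.13% and 0.267% of all tested genes. In the interaction 5 were positive and 0 negative at an unadjusted p under 0.05, beside 4.41% and 4.11% of all tested genes. Col1a1, a chain of type I collagen, was at 9.41 and 35.9 CPM in OO chow, 3.28, 12.9, 14.2 and 5.19 in OO EtOH, 106 and 83 in CCl4 chow and 81.3, 24.8 and 66.5 in CCl4 EtOH. All CCl4 libraries but 19 were above all OO libraries, and its interaction of 0.94 ± 0.71 was near its error and turned to -0.92 without libraries 6 and 12 and the covariate. Of 33 matrix remodelling genes 9 were positive and 0 negative at an unadjusted p under 0.05, beside 4.41% and 4.11% of all tested genes. Adam8, a metalloprotease of leukocytes, was at 1.88 and 4.45 CPM in OO chow, 0.533, 1.33, 1.99 and 1.14 in OO EtOH, 6.81 and 16.4 in CCl4 chow and 26.6, 33.2 and 28.1 in CCl4 EtOH. It fell by 1.62 in OO, had 1.34 ± 0.33 with CCl4 (adjusted p = 0.12), and an interaction of 2.96 ± 0.50 (edgeR adjusted p = 0.107), which was 1.63 in that same fit. Mmp7, a matrilysin, was at or below 0.959 CPM in all OO and CCl4 chow libraries and at 5.11, 6.18 and 4.36 CPM in CCl4 EtOH. Its ethanol change with CCl4 was 2.67 ± 0.56 (edgeR adjusted p = 0.0774). Its interaction was 3.15 ± 0.89 (edgeR adjusted p = 0.314), and neither passed. The median of the collagen and matrix list was 0.55 as reported, 0.42 without the covariate alone and -0.10 without libraries 6 and 12 and the covariate. That of the matrix remodelling list was 0.42, 0.39 and -0.14 in the same fits. Timp1 had -0.47 ± 1.37, within its error.

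Mitosis genes had the highest list median of the lists described so far, 1.33, with 13 of 30 tested members positive and 0 negative at an unadjusted p under 0.05 and none called. Their summed level was 70.5 and 97.6 CPM in OO chow, 52.9, 44.8, 46.7 and 37.3 in OO EtOH, 553 and 599 in CCl4 chow and 1060, 321 and 822 in CCl4 EtOH. All CCl4 libraries were above all OO libraries, and the CCl4 EtOH libraries lay on both sides of CCl4 chow. Mki67, a marker of cycling cells, was at 12.1 and 19.6 CPM, 7.2, 7.06, 6.64 and 4.31 CPM, 118 and 125 CPM and 206, 57.5 and 172 CPM in the order of arms, with an interaction of 1.59 ± 0.67 (edgeR adjusted p = 0.566). Library 19 was the lowest CCl4 library for it. Cenpf, a kinetochore protein, was the 1 member called in OO, where it fell by 1.81. The list median was 0.80 with OO of day 23 only and 1.20 without libraries 6 and 12 and the covariate.

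Some male-biased liver genes fell with ethanol in each setting. Of 19 tested male-biased genes 8 fell in OO and 9 with CCl4, beside 3.13% and 0.267% of all tested genes. The list's medians were -1.71 in OO and -2.71 with CCl4. The interaction held 0 positive and 5 negative members at an unadjusted p under 0.05. Hsd3b5, a male-specific steroid enzyme, was at 128 and 132 CPM in OO chow, 0.152, 1.43, 0.314 and 3.17 in OO EtOH, 18.4 and 42.1 in CCl4 chow and 0.175, 0.126 and 0.171 in CCl4 EtOH. It fell by 7.28 in OO and by 7.51 with CCl4, with an interaction of -0.23 ± 1.35, which was 2.12 without library 12. Cyp7b1, also male-biased, was at 250.1 and 229.7 CPM in OO chow, 96.8, 160.4, 143 and 229 in OO EtOH, 107 and 164 in CCl4 chow and 16.6, 17.8 and 9.65 in CCl4 EtOH, with an interaction of -2.41 ± 0.47 (edgeR adjusted p = 0.162). Of 17 tested female-biased genes 5 rose in OO and 1 with CCl4, beside 3.41% and 0.169% of all tested genes. The list's median change was 1.32 in OO and larger with CCl4, 3.46. Its median interaction of 0.68 ranged from -0.21 to 2.06 over the alternatives. It was -0.21 without library 19.

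Of 33 tested interferon-stimulated genes 17 fell with ethanol in OO, beside 3.13% of all tested genes. With CCl4 none was called, beside 0.267% of all tested genes called lower, so that count is near the overall share. The list medians were -0.87 in OO and -0.61 with CCl4. The interaction median was 0.34 as reported, 0.29 without the covariate alone and 0.04 without libraries 6 and 12 and the covariate. Ifit1 was at 9.93 and 18.2 CPM in OO chow, 2.86, 7.06, 5.96 and 4.13 in OO EtOH, 15 and 13.7 in CCl4 chow and 8.56, 7.31 and 8.54 in CCl4 EtOH. The EtOH libraries were below chow in both, and the interaction was 0.90 ± 0.30 (edgeR adjusted p = 0.413). For Ifit1 it was -0.02 without libraries 6 and 12 and the covariate. H2-Aa, a chain of MHC class II, fell in both, by 2.10 in OO and 1.11 with CCl4. It was at 67.8 and 59.4 CPM, 14.9, 18.1, 15 and 10.5 CPM, 98.5 and 102 CPM and 49.9, 46.3 and 43.5 CPM in the order of arms, and its interaction was 0.99 ± 0.26 (adjusted p = 0.296).

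The additive covariate assumes that ethanol acted alike in both OO substudies, and this was tested in a fit with separate means. Between substudy 2-3 (library 6 against 5) and substudy 2-4 (libraries 13 to 15 against 12), 13 genes passed in edgeR's test (0.0914% of tested genes), all with a more positive estimate in 2-3. Libraries 5, 6 and 12 are each alone in their group of this fit, so their spread is assumed to be like that of the other groups. DESeq2 called 19 genes, 16 more positive and 3 more negative in 2-3, with 10 of the 13 among them. All 13 edgeR calls belong to the exocrine pancreas list, among them Prss2, Cela2a, Cel, Cpb1 and Pnlip, which encode digestive enzymes. Without library 15 the count was 8. In all 437 genes had an unadjusted p under 0.05, and the median SE of this difference was 0.475. In the interaction, 25 of the 44 pancreas genes in the tables were tested and none had an unadjusted p under 0.05. Their median interaction was 2.29, but it ranged from -8.72 to 7.82 over the alternatives that kept them. These genes are therefore marked as carried over. Ctrl, a pancreatic protease, was at 0.519 and 9.53 CPM in OO chow and 8.12, 0.409, 0.261 and 0.791 CPM in OO EtOH, high in libraries 12 and 6 only. With the pancreas genes removed before scaling, the interaction called 5 genes, and these were the same 5.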

How the data were processed

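Liver RNA of 15 libraries was sequenced, and 11 entered here. The authors deposited raw read counts per gene symbol and library. Alignment with GSNAP to mm10 and DESeq2 1.12.3 are named per the submitters' processing notes; the counting program, annotation and strand setting are each not given in the sources used here. Entries that name no gene held 47 to 57.1% of listed reads and entered neither library sizes nor tests.

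Counts were tested with edgeR 4.0.16 (R 4.3.3): TMM scaling, filterByExpr by arm, glmQLFit with robust estimation and glmQLFTest, with 4 arm means and a substudy term. The Benjamini-Hochberg threshold was 0.05. The test was also run on simulated counts with known changes, whose outcome is not reported here. There were 23 alternatives, among them DESeq2 1.42.0, limma 3.58.1 (voom), other scalings, filters and sets of libraries, and each of 11 libraries left out. No column of per-sample values was left unused (0). Coordinates came from GENCODE M21 on GRCm38, which held 23680 of the 24499 symbols; start-site sequences came from RefSeq on GRCm38.p6. The tables' names carry another day than the labels, which were followed. The lane used as a random block with limma-voom came from the same names.

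Per direction up to 12 called genes of at least 5 CPM in an arm were named, filled to 8 by the smallest p, then up to 4 genes of each list with at least 3 calls and up to 2 of each other list, and 22 fixed genes. Gstm1, Gstm2, Gstm3, Gsta2, Gstt3, Akr1b7, G6pdx, Gclc, Srxn1, Ugt1a9, Abcg5, Aldh3a2, Cyp2c29, Clec4f, Lgals1 and the pancreas genes other than Ctrl and Bhlha15 were named after their values were seen. The genes, the 45 lists and the tests were chosen with earlier results of these data known.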

Additional observations from a re-analysis of the deposited data

Results flagged for a closer look

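Cbr3 (-5.564), Abcc4 (-3.128), Fabp5 (3.671), Blvrb (-1.747) and Gsta1 (-5.58) were the genes whose ethanol change, on the log2 scale, differed between CCl4 and OO animals by the interaction test. For 13 genes, all of the exocrine pancreas list, edgeR called the ethanol change in OO different between the substudies. Pancreas transcripts were carried over in libraries 6 and 12, which both enter that difference with a positive sign. Of the 4 OO groups compared there, 3 are single libraries (5, 6 and 12). Their spread is borrowed from the other groups of the fit, the CCl4 arms among them.

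In the OO EtOH arm of 4 libraries, 13 of 115 named genes (11.3%) had 1 library far from the other 3 by Dixon's ratio at its 95% critical value, where chance flags about 1 in 20. Library 6 was the distant one 6 times, library 14 4 times, library 15 2 times and library 13 1 time. Of these libraries only 6 is of day 23 and substudy 2-3. For it an odd library and a day or substudy difference cannot be told apart. The rate of 1 in 20 holds for libraries drawn from a single group. Library 6 was low for Ephx1 (832.6 CPM) and Ftl1 (3868 CPM), and high for Bmp2 (19.51 CPM), Ppp1r3g (33.53 CPM), Rora (173.8 CPM) and Ctrl (8.115 CPM), a pancreas gene. Library 14 was high for Nqo1 (46.42 CPM), Inhba (16.89 CPM) and Fabp4 (10.09 CPM) and low for Rsad2 (6.587 CPM). Library 15 was low for Cfp (25.41 CPM) and high for Nsdhl (68.59 CPM). Library 13 was high for Ngp (1.331 CPM), a neutrophil granule gene.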

How the results depend on the processing

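The interaction called 5 genes as reported, 154 with DESeq2 (81 higher, 73 lower), 3 with limma-voom with or without lane as a random block, 33 with all 15 libraries, 7 without the substudy covariate, 2 without libraries 6 and 12 and the covariate, 0 with OO of day 20 only, and 0 to 9 with 1 library left out. Ethanol in OO called 930 genes as reported, 1573 with DESeq2, 1471 with all 15 libraries, 240 with OO of day 20 only, 73 with OO of day 23 only, 44 without libraries 6 and 12 and the covariate (653 without the covariate alone), and 33 to 1662 with 1 library left out. Ethanol in CCl4 called 62 as reported, 343 with DESeq2, 205 with all 15 libraries, 118 with OO of day 23 only, and 21 to 130 with 1 library left out. The effect by substudy called 13 as reported, 22 with no filter on low counts, 19 with DESeq2, and 8 to 14 with 1 library left out (8 without library 15). The cause of these shifts was not tested. No called value changed sign under an alternative. Over the named genes and alternatives, 2379 values kept direction and side of the threshold or stayed within error, 143 moved, 73 gained a call and 45 lost one. No paired analysis was possible because each library number occurs once and the arms share none. With 2 chow libraries an arm, and 1 OO chow library a substudy, the spread behind each chow mean rests on few libraries. With the substudy term kept, leaving out library 5, 6 or 12 takes a whole substudy out of the OO ethanol estimate.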

Other observations

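Several stress and secreted liver proteins gave no interaction call. Lcn2, an iron-binding acute phase protein, was at 139 and 449.8 CPM in OO chow, 683, 1411, 725 and 564 in OO EtOH, 555 and 339 in CCl4 chow and 1069, 811 and 1828 in CCl4 EtOH. The EtOH libraries were above chow in both settings, and its interaction was -0.02 ± 0.67 (edgeR adjusted p = 0.999). Saa1, serum amyloid A1, had 0.20 ± 0.91 (adjusted p = 0.995), and 0 of 29 acute phase genes had an unadjusted p under 0.05.

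Fgf21, a hormone of hepatocyte stress and fasting, was at 0.974 and 1.35 CPM in OO chow, 22.8, 13.6, 3.97 and 2.9 in OO EtOH, 1.04 and 0.891 in CCl4 chow and 1.48, 4.03 and 20.7 in CCl4 EtOH. It was high in single EtOH libraries of both settings. Hamp, hepcidin, was at 262 and 375 CPM in OO chow, 143, 229, 106 and 117 in OO EtOH, 302 and 171 in CCl4 chow and 53.4, 71.3 and 4.27 in CCl4 EtOH. Its EtOH libraries were below chow in both settings, with an interaction of -1.31 ± 1.28, near its error. Cdkn1a, the cell-cycle inhibitor p21, was at 2.14 and 15.6 CPM, 0.495, 3.07, 1.15 and 0.528 CPM, 26 and 10.3 CPM and 10.5, 6.37 and 8.2 CPM in the same order of arms, with an interaction of 1.87 ± 0.81 (edgeR adjusted p = 0.572), which turned to -0.62 without libraries 6 and 12 and the substudy covariate. Of 28 tested p53 target genes, 6 were positive and 1 negative in the interaction at an unadjusted p under 0.05, and their median was -0.01. Over all tested genes the shares were 4.41% and 4.11%.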
